A study of Caenorhabditis elegans with 66 samples.

Results

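SNPC-1.1 binding in C. elegans germline nuclei was compared with the background of untagged worms, using the chromatin immunoprecipitation sequencing (ChIP-seq) peak lists of 6 libraries. The members were chosen by their labels, as the 3 immunoprecipitated (IP) libraries of the SNPC-1.1 strain (replicates 2, 3 and 4) and the 3 IP libraries of N2 (replicates 2, 3 and 4), out of 33 IP libraries and 66 samples in the series. The tagged worms carried snpc-1.1::3xflag, a FLAG epitope on the SNPC-1.1 protein, and N2 is the untagged wild-type strain, so an N2 peak shows what the procedure enriched without a tagged protein. Both groups were germline nuclei isolated from young adults at 56 h, grown in liquid culture at 20 °C and cross-linked with formaldehyde, and each IP library had its own input. The description of N2 replicate 2 names SNPC-1.2 as the target where those of the other N2 libraries name SNPC-1.1, and this library was taken as N2 from its title. The labels do not state that replicates came from separate cultures, so p-values measure only the spread between these libraries. Peak lists hold no expression levels, so the germline label could not be checked against marker genes.

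SNPC-1.1 belongs to SNAPc, the complex named for activating small nuclear RNA (snRNA) genes. This complex binds a sequence element just upstream of short RNA genes and recruits the RNA polymerase that transcribes them. Its best known targets are the snRNA genes, whose products build the splicing machinery. In worms the complex also serves the spliced leader genes, whose short exons are joined to the start of many messenger RNAs, and the piRNA genes, short germline RNA genes clustered on chromosome IV.

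The 6 lists differed greatly in length and strength. SNPC-1.1 replicates 2, 3 and 4 held 14912, 1504 and 10238 summits in 12071, 1360 and 8670 distinct regions, against 764, 1001 and 28 summits in 622, 871 and 21 regions in N2 replicates 2, 3 and 4. The SNPC-1.1 regions covered 7.23, 0.370 and 4.39 Mb, with median widths of 470, 219 and 412 bp. Strength is given here as the authors' fold, the ratio of IP signal over the library's own input at the summit. The highest fold was 345, 25.9 and 245 in the SNPC-1.1 lists and 3.71, 7.00 and 4.87 in the N2 lists. Regions of fold 10 or more numbered 1244, 55 and 467 in the SNPC-1.1 lists, and none reached it in N2. Read depth is unknown, and the length of a list is not a depth.

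SNPC-1.1 peaks lay at nearly all SL2 spliced leader and SmY RNA genes and at most snRNA genes. Here a gene has a peak if any summit falls no more than 200 bp from it (from either end for genes over 500 bp). Of 18 SL2 genes, 100%, 94.4% and 94.4% had a peak in SNPC-1.1 replicates 2, 3 and 4 (96.3% ± 3.21), against 27.8%, 38.9% and 0% in N2 replicates 2, 3 and 4 (22.2% ± 20.0, mean ± SD, n = 3 each, here and in the next sentences). Of the 10 SmY genes annotated as snRNA it was 100%, 90% and 100% in SNPC-1.1 (96.7% ± 5.77), against 0% in each N2 library. The other SmY genes, smy-2 and smy-3, are annotated as snoRNA and counted there, and with them 12, 11 and 12 of 12 SmY genes had a peak in SNPC-1.1, against 0 in each N2 library. Of 88 other snRNA genes it was 77.3%, 61.4% and 76.1% in SNPC-1.1 (71.6% ± 8.88), against 12.5%, 14.8% and 1.14% in N2 (9.47% ± 7.31). The groups lie far apart in these classes, and replicate 3 is not low for SL2 genes. The mean shares were 30.4% ± 15.4 and 5.68% ± 5.50 for 346 snoRNA genes, 11.8% ± 9.15 and 0.513% ± 0.588 for 260 microRNA genes, and 3.28% ± 2.16 and 0.0412% ± 0.0370 for 15363 piRNA genes, in SNPC-1.1 and N2 in that order. Replicate 3 was only just above N2 replicate 3 for snoRNA genes, at 12.7% against 11.0% (44 against 38 genes). For microRNA genes it had 1.92% against 1.15% (5 against 3 genes), and for piRNA genes 0.924% against 0.0716%. In these 6 of 13 classes every SNPC-1.1 library lay above every N2 library. In each of them p was 0.1 by the exact two-sided permutation test, which 3 against 3 libraries cannot go below, and the Benjamini-Hochberg adjusted p was 0.263 over 21 tests, so none could pass 0.05.

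The other 7 classes overlapped between the groups, in most cases through SNPC-1.1 replicate 3. Of 634 tRNA genes, 74.3%, 5.36% and 70.7% had a peak in SNPC-1.1 replicates 2, 3 and 4, against 7.41%, 18.3% and 0% in N2 replicates 2, 3 and 4. The 634 take in 276 on X, 336 on the autosomes and the mitochondrial ones. Some mitochondrial tRNA genes had a peak in N2 replicate 2, which raises its share, and none had one in SNPC-1.1. Replicate 3 thus listed fewer tRNA genes than 2 of the N2 libraries, although both other SNPC-1.1 lists held most of them. Protein-coding genes behaved likewise, with 18.3%, 1.02% and 13.8% of 19983 in SNPC-1.1 against 1.26%, 1.50% and 0.0250% in N2. Histone genes (33.3%, 1.39% and 26.4% in SNPC-1.1, against 4.17%, 9.72% and 0% in N2) and ribosomal protein genes (21.8%, 0% and 25.6%, against 6.41%, 5.13% and 0%) also had a replicate 3 share below those of N2 replicates 2 and 3. The 7659 other short non-coding RNA genes had a peak at 24.3%, 1.89% and 16.8% in SNPC-1.1, against 1.96%, 3.13% and 0.0653% in N2, and the 22 rRNA genes at 45.5%, 18.2% and 36.4%, against 18.2%, 4.55% and 0%. The 12 SL1 genes, repeated copies on chromosome V, had a peak at 1, 1 and 0 genes in SNPC-1.1 and at none in N2.

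**Figure D1:**
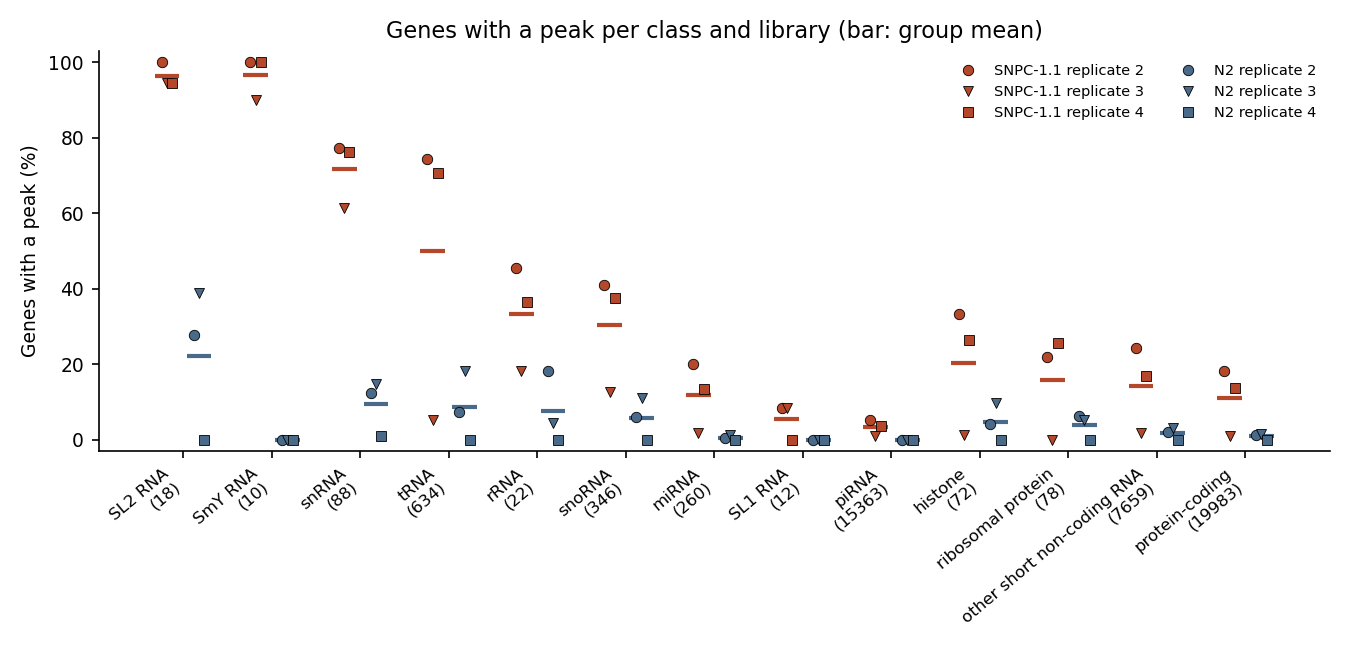
Percent of the genes of each class (x axis, number of genes in brackets) with a peak, for each SNPC-1.1 library (left of each class) and N2 library (right), with horizontal bars at the group means. SL2, SmY and snRNA genes are high in all 3 SNPC-1.1 libraries, while replicate 3 (triangles) drops to 5.36% for tRNA genes, where replicates 2 and 4 stand at 74.3% and 70.7%.

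Because a longer list places peaks at more genes of any kind, the 3 SNPC-1.1 lists and N2 replicates 2 and 3 were also compared at the same length, the 764 best peaks by q value. This comparison was chosen after the data were seen and leaves out N2 replicate 4. At that length snRNA genes with a peak stood at 59.1%, 60.2% and 60.2% in SNPC-1.1 replicates 2, 3 and 4, against 12.5% and 12.5% in N2. SL2 genes stood at 94.4% in each SNPC-1.1 list, against 27.8% and 38.9% in N2, and SmY genes at 60%, 70% and 90%, against 0% and 0%. Replicate 3 was thus like the other SNPC-1.1 lists in these 3 classes once lengths were equal. The tRNA share, in contrast, was 6.94%, 4.42% and 10.6% in SNPC-1.1, against 7.41% and 15.8% in N2, and the mean difference turned to -4.28 points (exact two-sided permutation p = 0.4). Protein-coding genes stood at 0.500%, 0.430% and 0.671% in SNPC-1.1, against 1.26% and 1.19% in N2. In the snRNA, SL2, SmY and protein-coding classes the groups did not overlap, each with exact two-sided permutation p = 0.1, the smallest that 3 against 2 libraries allow. They did not overlap either for piRNA genes (0.234%, 0.338% and 0.286%, against 0.0521% and 0.0586%) and snoRNA genes (12.1%, 11.8% and 13.0%, against 6.07% and 9.54%). The same held for microRNA genes (2.31%, 1.15% and 1.54%, against 0.385% and 0.769%). Ribosomal protein genes lay below N2 (0%, 0% and 3.85%, against 6.41% and 5.13%).

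Single genes were called when they had a peak in every SNPC-1.1 library and in none of N2. Of 46926 annotated genes 365 met this rule, which is 0.778%, and 0 met the opposite rule, which is 0%. The calls covered 9 of 10 SmY genes, 10 of 18 SL2 genes, 40 of 88 snRNA genes, 25 of 346 snoRNA genes (7.23%) and 22 of 634 tRNA genes (3.47%). The 72 called piRNA genes are 0.469% and the 82 called protein-coding genes 0.410% of their classes, both below the share over all genes. These counts rest on replicate 3: without it, 4151 genes (8.85%) had a peak in SNPC-1.1 replicates 2 and 4 and in no N2 list, among them 2082 protein-coding genes (10.4%), now above the share over all genes, and 523 piRNA genes (3.404%). Neighbouring genes share peaks, and the 365 calls rest on 231 regions of SNPC-1.1 replicate 4. The rule also passes over strong sites: 107 further genes (0.228% of all genes) were listed by all 3 SNPC-1.1 libraries and by at least 1 N2 library, among them 7 SL2 and 14 snRNA genes.

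The SL2 RNA genes carried the highest folds of the lists. Positions here and below are on the WBcel235 build. The top gene was sls-2.4 (I:4172206-4172315), with folds of 345, 25.9 and 245 in SNPC-1.1 replicates 2, 3 and 4, against 2.46 and 3.75 in N2 replicates 2 and 3. Close behind among the SL2 genes was sls-2.1 (II:5844865-5844974), with 331, 24.2 and 188 in SNPC-1.1, against 2.51 and 4.26 in N2 replicates 2 and 3. Both therefore had a peak in 2 N2 libraries and are not among the 365 calls, although their N2 folds were low. The highest called SL2 gene was sls-2.16 (III:7141391-7141499), with 160, 12.9 and 116 in SNPC-1.1 and no N2 peak. Its neighbours sls-2.18 and sls-2.5, within 2 kb, had 141, 10.2 and 97.0 and 131, 10.0 and 98.6. The lowest SL2 folds in replicate 4 were 39.3 at sls-2.10 and 51.3 at sls-2.11, a pair on chromosome IV, where replicate 3 had 5.85 and 6.21. A single SL2 gene stood apart, sls-2.6 on chromosome I, which had a peak of fold 1.60 in replicate 2 and no peak in the other 5 lists.

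The SmY RNAs are nematode-specific RNAs linked to trans-splicing. No N2 library had a peak at any of their genes. The highest folds were at smy-2 (IV:9511395-9511466), with 183, 9.51 and 108 in SNPC-1.1 replicates 2, 3 and 4, and smy-3 (V:14092572-14092651), with 122, 10.4 and 97.2, the pair annotated as snoRNA. The 10 others had lower folds than most SL2 genes. The highest of them was smy-1 (IV:9511763-9511839), with 86.3, 6.39 and 60.6 in SNPC-1.1 replicates 2, 3 and 4, and smy-10, smy-9 and smy-8, neighbours in the larger piRNA cluster, followed with 43.0 or more in replicates 2 and 4. Beside smy-3 on chromosome V, smy-4, smy-5 and smy-6 had folds between 5.23 and 13.3 in replicates 2 and 4. In replicate 3 smy-4 had 1.87, smy-6 had 1.72 and smy-5 had no peak, the only SmY gene missing there.

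**Figure D2:**
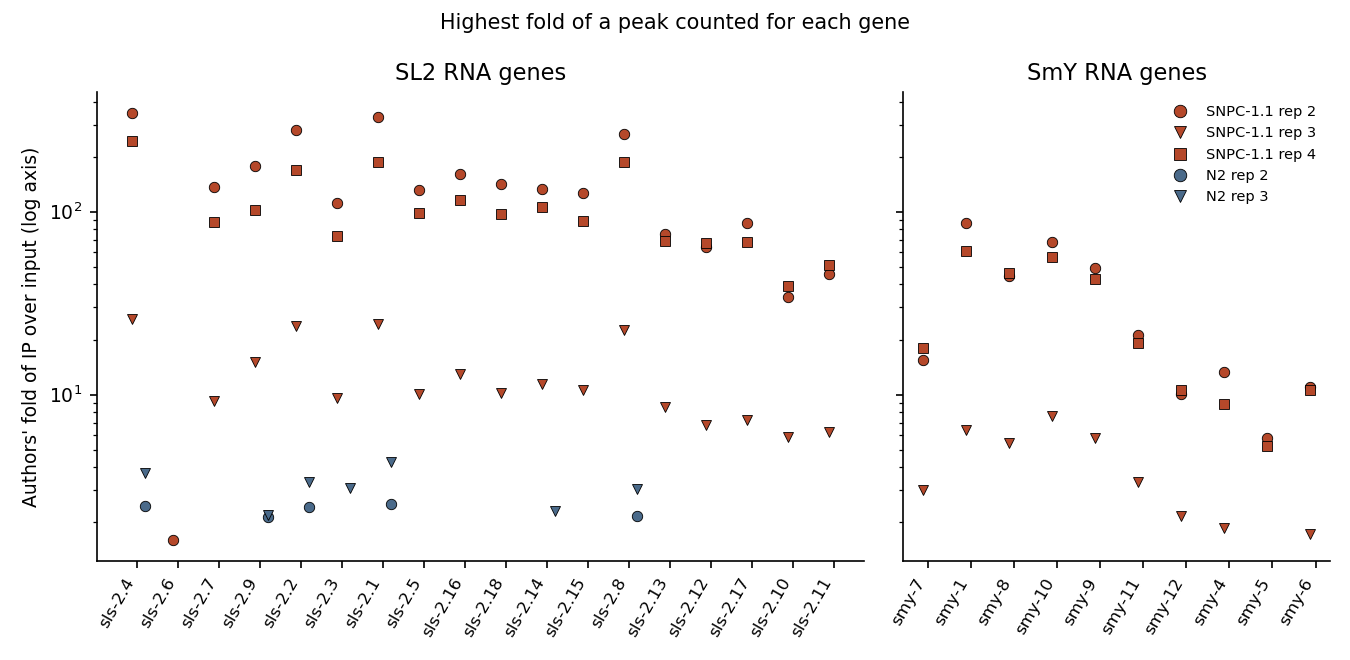
Highest authors' fold (log axis) of a peak counted for each SL2 gene (left panel) and each of the 10 SmY genes annotated as snRNA (right panel), in SNPC-1.1 libraries (red) and N2 libraries (blue, where a peak was listed). In each gene with a peak in all 3 SNPC-1.1 libraries, replicate 3 lies lowest of them, and the N2 points at 7 SL2 genes lie between 2.14 and 4.26.

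At the snRNA genes the median fold was 46.5, 6.30 and 37.7 in SNPC-1.1 replicates 2, 3 and 4, over the 68, 54 and 67 genes with a peak. The highest called gene was T08G5.11 (V:14028471-14028635), with 158, 15.4 and 127 in SNPC-1.1 and no N2 peak, and ZK897.2, ZK897.4 and F10D2.13 followed with 96.5, 84.8 and 79.7 in replicate 4. Higher still, but with N2 peaks, were C52E4.8 (V:11980118-11980261) with 312, 21.8 and 199 in SNPC-1.1, against 2.27 and 2.72 in N2 replicates 2 and 3, and sup-6 (II:12944803-12944967), a splicing suppressor gene, with 284, 21.7 and 187, against 2.78, 3.28 and 2.65 in N2 replicates 2, 3 and 4. All 12 snRNA genes found in replicates 2 and 4 but not in replicate 3 had low folds in replicates 2 and 4, from 3.19 to 11.3. The first of them by the lower fold were C53B4.9 (11.3 and 9.94) and F54C8.10 (8.99 and 8.27).

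The snRNA genes fall into groups by annotated length, which the annotation does not name. The 6 genes of 80 to 97 bp had a peak at 1 gene in every SNPC-1.1 list, M163.13. The 30 genes of 101 to 108 bp had a peak at 20, 10 and 20 genes in SNPC-1.1 replicates 2, 3 and 4. Within this group, 14 genes lie within 5 kb of another of the group, and these had a peak at 11, 2 and 11 genes, with median folds of 5.91 in replicate 2 and 6.68 in replicate 4. The 16 that lie alone had a peak at 9, 8 and 9 genes, with median folds of 52.7 in replicate 2 and 47.9 in replicate 4. The 19 genes of 185 to 187 bp had a peak at 16 genes in every SNPC-1.1 list, 13 of them called. Outside this array group, replicate 3 held a peak at nearly as many genes as replicate 4 in every length group. Reads from near-identical neighbouring copies may be lost or shared in mapping, and the part of this in the low array folds was not tested.

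Transfer RNA genes, transcribed by RNA polymerase III from elements inside the gene, were many in SNPC-1.1 replicates 2 and 4, but with low folds. The median fold over the 471 and 448 tRNA genes with a peak was 3.69 in replicate 2 and 3.57 in replicate 4. Of those in both, replicate 3 listed 31, or 7.31%, whose median fold was 43.8 in replicate 2 and 38.6 in replicate 4. The 393 that it did not list had medians of 3.74 and 3.49. The highest called tRNA genes were C27A2.t1 (II:5057447-5057520), with 178, 11.7 and 125 in SNPC-1.1, ZC412.t1 (116, 8.46 and 89.1) and Y37A1B.t1 (119, 10.3 and 78.7). Each of these 3 lies within 500 bp of another annotated short non-coding RNA gene, as do 15 of the 22 called tRNA genes, so their folds cannot be assigned to the tRNA gene alone. Among tRNA genes in replicates 2 and 4, without a peak in replicate 3 or N2, F25F6.t1 (X:4444262-4444333) ranked first by the lower of its folds, with 21.1 in replicate 2 and 21.5 in replicate 4. Without the replicate 3 requirement, 299 tRNA genes (47.2%) met the rule, against the 8.85% of all genes given above.

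Small nucleolar RNAs guide the chemical modification of ribosomal RNA, and their genes ranged from strong to weak sites. The 43 snoRNA genes with a peak in all 3 SNPC-1.1 lists had median folds of 125, 10.6 and 97.2 in replicates 2, 3 and 4. A further 81, found in replicates 2 and 4 but not in replicate 3, had medians of 4.62 and 4.02. These sets were made by presence in replicate 3, which held mainly sites of high fold, so the medians show no split into separate kinds. The ranges overlapped: folds in replicates 2 and 4 went down to 7.07 and 3.64 among the 43, and up to 26.6 and 14.4 among the 81. The highest folds belonged to F59C6.15 (I:10516978-10517150), with 311, 23.4 and 225 in SNPC-1.1, against 2.27 and 3.44 in N2 replicates 2 and 3, and to Y53F4B.47 (II:15025814-15025893), with 323, 22.8 and 218 in SNPC-1.1, with N2 peaks in replicates 2 and 3 too. The highest called one was F25H2.15 (I:10565266-10565443), with 240, 14.4 and 153, followed by W04D2.7 (V:12491280-12491346), with 190, 14.1 and 141. Of the 213 snoRNA genes that lie inside a protein-coding gene, 31.5%, 9.86% and 29.6% had a peak in SNPC-1.1 replicates 2, 3 and 4. Of the 133 outside, 56.4%, 17.3% and 50.4% had one, higher in all 3 libraries. The N2 shares ran the same way, with 5.16% and 8.45% inside against 7.52% and 15.0% outside in replicates 2 and 3.

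MicroRNA genes were rarely strong sites. Of 260, 4 were called, or 1.54%, above the 0.778% of all genes. Without replicate 3 it was 11.5%, beside 8.85% of all genes. The called ones were mir-2214 (III:7278715-7278778), with 90.5, 6.76 and 53.1 in SNPC-1.1 replicates 2, 3 and 4, the pair mir-8196.1 and mir-8196.2 on chromosome X, with 34.5 and 25.5 in replicate 4, and mir-8193, with 5.73. Both mir-8196 genes lie over 500 bp from any other short RNA gene. Among those missing from replicate 3, the first by the lower fold was mir-51, of a microRNA family needed for embryonic development, with 14.0 in replicate 2 and 11.8 in replicate 4. Of the 5S rRNA genes in the repeated array on chromosome V most had low folds or no peak, and the called one was rrn-4.15 (V:17428879-17428996), which lies outside the array, with 22.0, 4.43 and 25.7 in SNPC-1.1 and no N2 peak.

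RNase P and RNase MRP process precursor tRNAs and ribosomal RNA, and the genes of their RNA parts were strong sites without an N2 peak. These are rpr-1 (I:13463955-13464207), with 222, 19.2 and 126 in SNPC-1.1 replicates 2, 3 and 4, and mrpr-1 (II:7200233-7200418), with 111, 12.6 and 67.9. The Y RNA gene yrn-1 (IV:7499508-7499612) had 26.9, 3.58 and 24.2. ZK265.11 (I:8245547-8245622), a non-coding RNA gene with no other short RNA gene within 500 bp, had 193, 17.1 and 134. These 4 genes belong to the other short non-coding RNA genes, of which 86 were called, 66 of them within 500 bp of another short RNA gene.

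At piRNA genes SNPC-1.1 peaks were few and mostly weak. The 4 called piRNA genes with the highest folds lay beside SmY or SL2 genes, for example 21ur-3398 inside the span of smy-10 (68.7, 7.63 and 56.2 in SNPC-1.1 replicates 2, 3 and 4 at both). Of the 550 piRNA genes within 500 bp of another kind of short RNA gene, 11.3%, 3.45% and 7.64% had a peak in SNPC-1.1. Of the other 14813, 4.93%, 0.830% and 3.60% had one, lower in each library, with median folds of 4.03, 1.82 and 2.96. These 14813 hold 55 of the 72 called piRNA genes. In the clusters lie 95.8% of the called piRNA genes and 92.5% of all piRNA genes. Of the piRNA genes in the replicate 3 list, 67 of 142 had no peak in replicate 2 or 4. For protein-coding genes it was 97 of 204, and over all genes 205 of 700.

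Most SNPC-1.1 regions were not at short RNA genes at all. The share of regions with any summit at a short RNA gene was 17.1%, 20.1% and 17.9% in SNPC-1.1 replicates 2, 3 and 4, against 25.1%, 29.6% and 14.3% in N2 replicates 2, 3 and 4. The groups overlapped, with a mean of 18.4% ± 1.54 in SNPC-1.1 and 23.0% ± 7.88 in N2 (SD, n = 3 each) and an exact two-sided permutation p = 0.4. Inside protein-coding genes, away from their ends, lay 29.2%, 42.4% and 26.9% of SNPC-1.1 regions, against 16.2%, 15.8% and 38.1% of N2 regions, with SNPC-1.1 medians of 3.13, 1.93 and 3.03 in fold. At the ends of protein-coding genes lay 21.6%, 11.2% and 22.7% in SNPC-1.1, against 26.7%, 23.7% and 19.0% in N2. Replicate 3 thus had the highest share inside protein-coding genes and the lowest at their ends. Inside the 50 regions of highest fold, in contrast, 86% in replicate 2 and 90% in replicate 4 lay at a gene of the 8 classes snRNA, SmY, SL2, SL1, rRNA, tRNA, snoRNA and microRNA. That share was 10.7% and 11.7% for ranks 201 to 500, and 3.64% and 3.66% for the last ranks.

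Some strong sites had no annotated short RNA gene within 200 bp. Among the regions in at least 2 SNPC-1.1 lists and in no N2 list, the strongest of this kind (III:9408076-9409008) lay near the pseudogene T26G10.7, with 159, 15.4 and 123 in SNPC-1.1 replicates 2, 3 and 4. Another (IV:990394-992490) lay within 1 kb of egrh-2, a zinc finger gene, with 156, 9.97 and 95.3. The region at II:5598389-5600783 had 157, 10.1 and 112 and lay at the end of C17G10.6, beside C17G10.14, a non-coding RNA gene longer than the 500 bp limit of the short classes. Regions inside W04A8.6 (121, 9.89 and 83.3) and C23G10.1 (68.2, 5.90 and 59.5) came next.

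Of the 82 called protein-coding genes, 28 had a short RNA gene within 500 bp of the counted summit. Among the other 54 the highest folds after C17G10.6 were at msp-50 (II:5199797-5200180), a major sperm protein gene, with 36.2, 4.19 and 21.7 in SNPC-1.1, C33E10.10 (38.2, 3.47 and 17.3) and ztf-28 (22.9, 2.11 and 16.5). Of 31 major sperm protein genes msp-50 was the only one with a peak in any SNPC-1.1 list. That is 3.23%, where 10.4% of all protein-coding genes had a peak in replicates 2 and 4 and in no N2 list. Of the 2082 protein-coding genes in replicates 2 and 4 and in no N2 list, 2000 had no peak in replicate 3. Over all genes it was 3786 of 4151. First of the 2000 by the lower fold was zhit-1, with 36.2 and 19.5 in replicates 2 and 4. Next was cpf-1, a subunit of the cleavage factor that forms messenger RNA ends, with 28.3 and 14.9. Among 15 meiosis genes only syp-4, a synaptonemal complex gene, had a peak in all 3 lists, with 139, 10.4 and 93.0 in SNPC-1.1 and 2.45 in N2 replicate 3. The same folds belong to the snRNA gene H27M09.6, whose end lies near the start of syp-4. Of the 15 meiosis genes 6.67% had a peak in replicates 2 and 4 and in no N2 list, beside the same 10.4%.

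Genes of SNAPc and of the piRNA pathway themselves had peaks of low fold or none. The tagged gene snpc-1.1 had 3.62 in replicate 2 and 4.48 in replicate 4, and no peak in replicate 3 or N2. Its paralogue snpc-1.2 had 2.37 in replicate 4 alone, and snpc-1.3 and snpc-4 had no peak. Of the 8 SNAPc subunit genes, 2, 0 and 3 had a peak in SNPC-1.1, against 1, 0 and 0 in N2. A peak in replicates 2 and 4 and in no N2 list was found at 12.5% of them, near the 10.4% of all protein-coding genes. Of 14 piRNA factor genes, 5 had a peak in SNPC-1.1 replicates 2 and 4 and in no N2 library (tost-1, tofu-1, tofu-5, tofu-7 and attf-6), with folds from 1.50 to 4.32. That is 35.7%, where 10.4% of all protein-coding genes met the same rule. Replicate 3 listed none of the 14, and neither prg-1, the gene of the worm PIWI protein, nor prde-1 and tofu-4 had a peak in more than 1 library. Of 15 germ granule and germline genes, 3 (20%, beside the same 10.4%) were in replicates 2 and 4 and in no N2 list (nos-3, oma-2 and pgl-1), with folds from 2.62 to 4.66, and puf-5, a germline RNA-binding protein gene, had 9.43, 1.86 and 8.61 in SNPC-1.1, against 2.59 in N2 replicate 3.

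The position of the summits differed between classes. In the SL2 class all summits lay outside the gene, at medians of 35.5, 35 and 33 bp from its nearer end in SNPC-1.1 replicates 2, 3 and 4. SmY summits all lay outside too, at medians of 34, 37 and 32 bp. Of snRNA genes with a peak, 2.94%, 0% and 2.99% had the summit inside, and the others had it at medians of 39.5, 42 and 35 bp. snoRNA summits inside the gene were 14.1%, 4.55% and 12.3%, and the others lay at medians of 36.5, 40 and 31 bp. tRNA summits lay inside the gene in 70.9%, 35.3% and 75.7%. Replicate 3 had the lowest tRNA share inside, but in each of the 3 SNPC-1.1 libraries the tRNA share inside was above the snRNA share. N2 shared part of this. Its SL2 summits also all lay outside, at medians of 34 and 40 bp in replicates 2 and 3 (5 and 7 genes). There tRNA summits lay inside in 25.5% and 54.3%, against 36.4% and 7.69% for snRNA. The annotation used here gives no strand, so upstream and downstream ends could not be told apart.

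**Figure D3:**
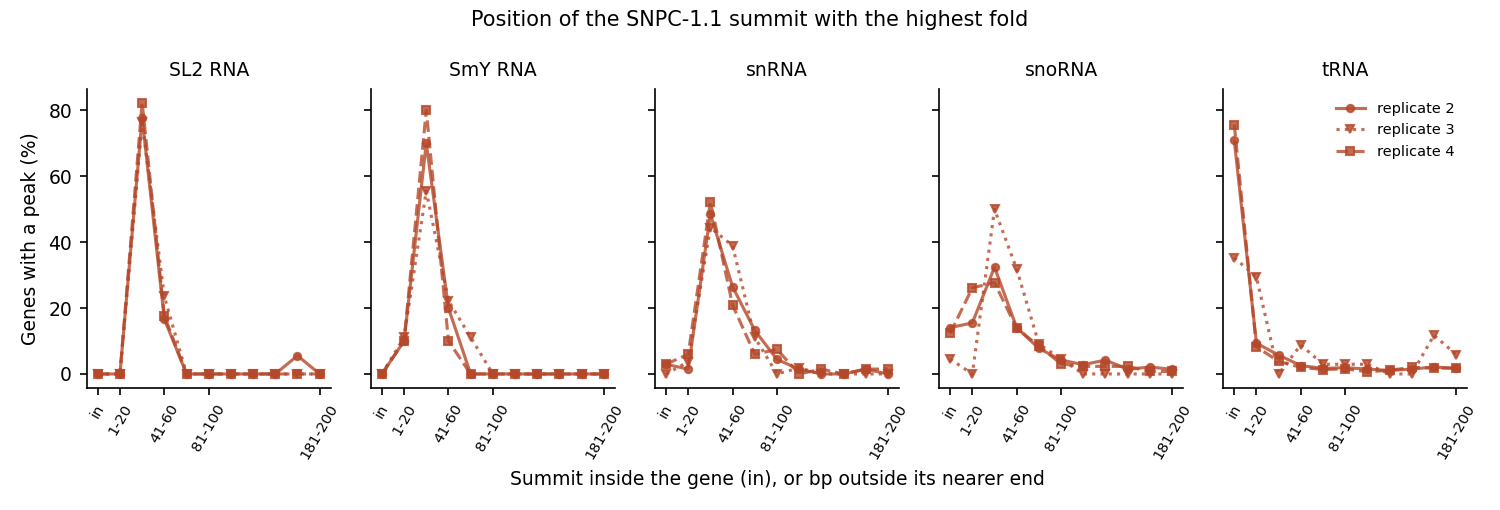
Position of the highest-fold SNPC-1.1 summit at genes of 5 classes, as the percent of genes with a peak (y axis) whose summit is inside the gene (in) or in steps of 20 bp outside its nearer end (x axis), with 1 line per replicate. SL2, SmY and snRNA summits gather within 60 bp outside, whereas tRNA summits lie mostly inside in replicates 2 and 4 (70.9% and 75.7%).

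SNPC-1.1 sites were found on all 6 chromosomes. Chromosome I held 14.1% ± 0.167 of SNPC-1.1 regions and 17.7% ± 1.91 of N2 regions, and the piRNA clusters on chromosome IV held 8.60% ± 2.08 and 3.44% ± 3.02 (SD, n = 3 each). In both results the groups did not overlap, with exact two-sided permutation p = 0.1 and adjusted p = 0.263. Chromosome I holds 15.0% of the annotated genome. Its share in N2 replicate 4, 15.8%, rests on only 3 regions, against SNPC-1.1 shares of up to 14.3%. The clusters held 6.82%, 10.9% and 8.10% of regions in SNPC-1.1 replicates 2, 3 and 4. In N2 they held 5.63%, 4.71% and 0%, the last in a list of 21 regions. The clusters' share of the genome was not computed. The values therefore give a difference from N2, and enrichment over the genome was not tested. Shares on chromosomes II to V and X overlapped between the groups. Chromosome X held 19.3%, 11.3% and 17.2% of the regions in SNPC-1.1 replicates 2, 3 and 4, against 9.24%, 18.7% and 15.8% in N2.

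Chromosome X lacked the strongest sites. Its highest fold was 54.6, 5.82 and 40.0 in SNPC-1.1 replicates 2, 3 and 4, at the snRNA gene M163.13 (X:14476867-14476946), while every autosome reached 267, 16.7 and 188 or more. Chromosome X has 3 of the 88 snRNA genes and no SL2 or SmY gene. It holds 276 of the nuclear tRNA genes, of which 74.3%, 1.81% and 71.7% had a peak in SNPC-1.1, and 79.2%, 8.63% and 74.4% of 336 on the autosomes. Those found had median folds of 3.37 and 3.26 on X and 3.87 and 3.82 on the autosomes in replicates 2 and 4. In N2, 2.54%, 14.9% and 0% of the tRNA genes on X had a peak, and 9.82%, 22.3% and 0% on the autosomes. The share on X was thus also the lower one in N2 replicates 2 and 3. Called genes were 0.498% of the genes on X, and 0.714%, 0.899%, 0.932%, 0.736% and 0.978% on chromosomes I to V. The low X share rests on replicate 3: without it, 11.4% of genes on X met the rule, and 12.7%, 11.2%, 13.4%, 5.58% and 9.27% on chromosomes I to V.

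Of the sites in the other lists, the short replicate 3 list held mainly the strongest. With replicates 2 and 4 cut to 1504 peaks by q value, 52.7% and 48.9% of their regions were also in replicate 3. All 100 regions of highest fold in replicate 2 and all 100 in replicate 4 overlapped a replicate 3 region. The share was 77.7% and 68.3% for ranks 201 to 500, 14.2% and 14.6% for ranks 1001 to 2000, and 0.384% and 0.407% for the ranks past 4000. The top 4000 regions of replicate 2, in contrast, overlapped replicate 4 in at least 95.3% of each rank bin. Of regions found in replicates 2 and 4 and in no N2 list, 6904 in number, replicate 3 held 747, or 10.8%. By class it held all 7 at SL2 genes, 36 of 46 at snRNA genes, 21 of 71 at snoRNA genes, 18 of 225 at tRNA genes and 59 of 1539 at the ends of protein-coding genes.

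**Figure D4:**
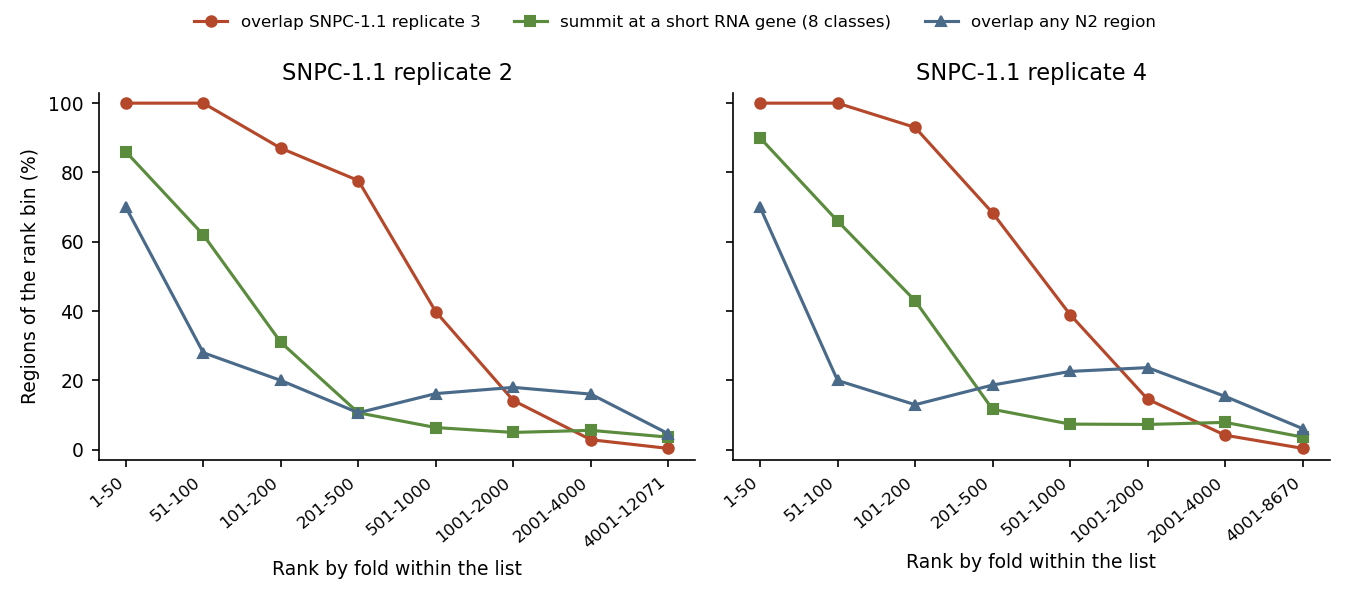
Regions of SNPC-1.1 replicate 2 (left) and replicate 4 (right), ranked by fold within each list (x axis, rank bins), as the percent of each bin (y axis) that overlaps a replicate 3 region, has its summit at a gene of 8 short RNA classes, or overlaps any N2 region. Replicate 3 holds all of the first 100 regions and under 1% of the last bin, and N2 overlap is highest, at 70%, in the first 50.

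At genes that all 3 SNPC-1.1 lists shared, replicate 3 ordered the sites much like the other lists but with lower folds. At the 472 genes with a peak in all 3 SNPC-1.1 lists (1.01% of all genes), the median fold was 34.0, 3.59 and 24.2 in replicates 2, 3 and 4, and replicate 3 was lowest at 468 of them. Across these genes the rank correlation of folds was 0.94 between replicates 2 and 3, 0.97 between 2 and 4, and 0.95 between 3 and 4. For the 72 piRNA genes among them it was lower with replicate 3, at 0.81 with replicate 2 and 0.78 with replicate 4. A further 205 of the 700 genes in the replicate 3 list had no peak in either other list. Genes are not independent replicates, and neighbours that share a peak share its fold. The genes of replicates 2 and 4 that replicate 3 lacked had medians of 3.87 and 3.09 in those lists. Cut to 1504 peaks by q value, replicates 2 and 4 gave 60.2% and 69.3% of snRNA genes, against 61.4% in replicate 3, and 10.9% and 15.8% of tRNA genes, against 5.36%.

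**Figure D5:**
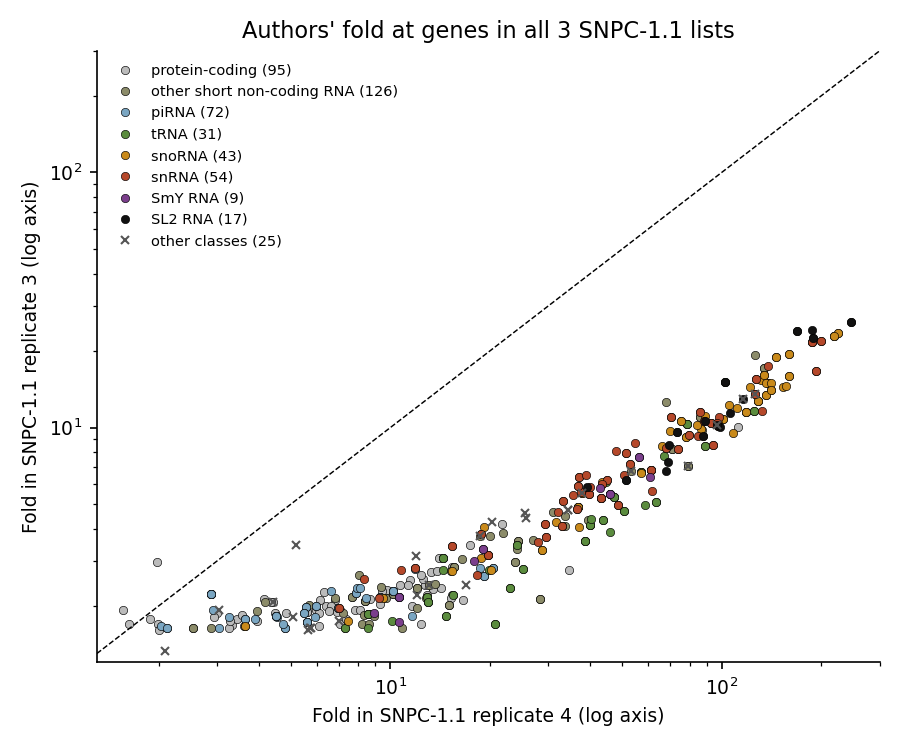
Authors' fold in SNPC-1.1 replicate 3 (y axis, log) against replicate 4 (x axis, log) at the 472 genes with a peak in all 3 SNPC-1.1 lists, coloured by class with the number of genes in brackets. The dashed line marks equal folds: nearly all points lie under it, and SL2, snRNA and snoRNA genes hold the upper right end.

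Replicate 3 also had regions of its own. Of its 1360 regions 442 overlapped neither replicate 2 nor replicate 4, with a median fold of 1.78. They made up 52.0% of its 708 regions of fold under 2, but 2 of its 120 regions of fold 5 or more. None of the 442 lay at an snRNA, SmY, SL2 or tRNA gene, 1 lay at an snoRNA gene, and 46.6% lay inside protein-coding genes.

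N2 regions were weak but mostly at sites that SNPC-1.1 replicates 2 and 4 also listed. Of N2 regions, 94.5% of those in replicate 2 and 94.5% of those in replicate 3 overlapped SNPC-1.1 replicate 2, and 93.1% and 94.0% overlapped SNPC-1.1 replicate 4. SNPC-1.1 replicate 3 overlapped 7.07% and 7.35% of them. Among the 50 strongest regions of SNPC-1.1 replicates 2 and 4, 35 in each (70%) overlapped an N2 region, against 10.7% and 18.7% of ranks 201 to 500. A peak in at least 1 N2 library was found at 994 genes (2.12% of all genes), and at 12 genes in all 3. Of those 12 the strongest in N2 was hsr-9, a DNA damage response gene, with 14.1 and 11.4 in SNPC-1.1 replicates 2 and 4, against 2.96, 4.16 and 3.72 in N2 replicates 2, 3 and 4.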

How the data were processed

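Each IP library had a deposited peak list, called with MACS2 2.1.2 on WBcel235, and deepTools was also used, per the submitters' processing notes. Aligner and filters are not given in the sources used here. The deposited lists give a ratio, the authors' fold of IP over input at the summit, and each summit's q value as −log10. The deposited lists also give a summit offset in bp, a measure of another kind, which placed each peak. Peaks that repeat 1 region's start and end were counted as 1 region where regions are given. No read counts were used, so depth is unknown and no counting interval is given. The authors' folds rank and describe peaks within a list and were not tested between libraries.

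Genes came from the RefSeq table for WBcel235 (46926 genes). Python 3 scripts, tested on simulated peaks (200 of 200 planted genes and 40 of 40 planted regions recovered), compared groups by exact permutation over 20 labellings. Consensus regions were those in at least 2 SNPC-1.1 lists, joined where they overlapped by 1 bp or more, leaving out any that met an N2 region. Genes were named by the highest median fold over the 3 SNPC-1.1 libraries among called genes of a class (up to 4), by the lower of the folds in replicates 2 and 4 among those missing from replicate 3 (2 per class), or by their place on a fixed list. C52E4.8, F59C6.15, Y53F4B.47, sup-6, syp-4, H27M09.6 and the SL2 and SmY genes outside this rule were named after their values were seen. Members and lists were chosen with earlier results of these data known. Leaving out libraries, other distances, stricter thresholds, shorter lists and a replicate block were tried as alternatives.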

Additional observations from a re-analysis of the deposited data

How the results depend on the processing

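The 21 percent differences (SNPC-1.1 minus N2, in points) were recomputed under 320 combinations of result and alternative. The sign was kept in 282, turned in 32 and went to 0 in 6. It never turned or reached 0 for snRNA, SL2 and snoRNA genes, and no exact permutation p fell below 0.1, so no call was gained. With peaks of −log10 q of 10 or more, the difference for regions near short RNA genes was 4.69, chromosome II 5.20 and chromosome IV -3.95. With fold 3 or more they were 9.66, 9.82 and -2.39, and 237 genes were called, with 3949 consensus regions and 3761 sites missing from replicate 3. Under both thresholds tRNA, rRNA and other short non-coding RNA genes reached exact permutation p = 0.1, from 0.3, 0.2 and 0.3 in the main setting. The tRNA difference was then 42.2 by q value and 33.2 by fold. SL1, histone, ribosomal protein and protein-coding genes did not reach 0.1. The genes called numbered 229 at 100 bp, 808 at 500 bp and 786 by region overlap. Counting every summit gave 1.88 for chromosome II and -1.57 for X. Consensus in all 3 libraries left 747 regions. With SNPC-1.1 lists cut to 1504 peaks, ribosomal protein genes stood at -0.427 and regions near short RNA genes at 0.284, with 919 consensus regions and 282 missing sites. Cut to 28 peaks, all lists gave 0 for SmY, SL1, miRNA, histone and ribosomal protein genes, -0.105 for tRNA, -3.03 for rRNA, -0.00217 for piRNA and -0.0167 for protein-coding genes. Regions near short RNA genes then stood at 77.3, chromosome I at 1.09, II at 9.25, IV at -3.28, X at -5.26 and the clusters at -1.19, with 39 genes, 25 consensus regions and 1 missing site.

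Leaving out 1 library moved chromosome X between -1.34 and 3.67 (-0.363 without SNPC-1.1 replicate 2), III between -4.95 and 1.297, II between -2.13 and 0.779, the gene count between 365 and 4151 (the highest without SNPC-1.1 replicate 3) and consensus regions between 760 and 7390. Libraries of the same replicate number correlated at 0.008, -0.335 and -0.184 across the 21 results. With 3 libraries a group, related results and lists of very unequal length, this cannot show whether replicate numbers pair the libraries. The replicate block, an exact sign-flip permutation test, has 8 patterns and allows p = 0.25 at best, so no percent difference could be called under it. Its looser rule for genes gave 4235 genes in place of 365. These alternatives were chosen after the data were seen: with 5 lists cut to 764 peaks, SL1 was 0, tRNA -4.28, histone -2.55, ribosomal protein -4.49, other short RNA -0.472, protein-coding -0.692, regions near short RNA 1.96 and chromosome II 2.96. Without both SNPC-1.1 replicate 3 and N2 replicate 4, chromosome II was 0.0820 and 4151 genes were called. Causes were not tested. With 3 libraries a group, no read depth and lists of 28 to 14912 peaks, no difference could pass 0.05.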

Other observations

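Mitochondrial DNA had no region in the 3 SNPC-1.1 lists, against 5, 0 and 2 regions in N2 replicates 2, 3 and 4. Of 156 collagen genes, 19, 0 and 13 had a peak in SNPC-1.1 replicates 2, 3 and 4, against 0, 4 and 0 in N2 replicates 2, 3 and 4. The SNPC-1.1 shares of collagen genes, 12.2%, 0% and 8.33%, lay below those of all protein-coding genes, 18.3%, 1.02% and 13.8%.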
